A study of Homo sapiens with 8 samples.

Results

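The genes described here form the antioxidant programme of the cell that is best known for its control by the transcription factor NRF2, gene name NFE2L2. They were taken by name from the deposited expression table, and kept where at least 2 libraries reached 1 FPKM. FPKM are fragments scaled to exon length and to a library size set by the authors. Of 38 listed names, which gave 39 rows because SOD2 has 2, 33 genes passed this filter, out of 16239 of the 58735 genes in the table. Every one of the 33 reached 1 FPKM in all 8 libraries. The remaining 6 rows, GPX2, AKR1B10, AKR1C1, AKR1C2, AKR1C3 and the second SOD2 row, were not tested.

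RNA came from HCT116, an established human colorectal carcinoma line. Cells expressing a control shRNA (short hairpin RNA) were kept for 24 h at 20 mM or at 0 mM glucose. Cells expressing MAPKAPK2 shRNA 1 or MAPKAPK2 shRNA 2 also grew at 20 mM glucose; the labels do not say for how long. MAPKAPK2 encodes MK2, a stress kinase downstream of p38. Each of the 4 groups had 2 libraries, so all groups share the line and the expression of some shRNA, and both MAPKAPK2 shRNAs are read against the same 2 control libraries. The labels do not say whether a group is a pool of cells or a clone.

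NRF2 is made and destroyed continuously. KEAP1 holds it in the cytoplasm and hands it to a ubiquitin ligase built on CUL3, and electrophiles or peroxides that modify KEAP1 cysteines let NRF2 escape, enter the nucleus and pair with a small MAF protein on antioxidant response elements. Its best known targets detoxify quinones and haem, make and recycle glutathione and thioredoxin, and store iron. Much of this control acts on protein stability, so NFE2L2 mRNA need not follow NRF2 activity. The protein was not measured here.

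The core of the antioxidant response element was searched as TGACNNNGC, on both strands, in RefSeq promoters of GRCh38.p14 that run from 250 bases before to 50 bases after a start. Promoters were found for 24 of the 33 genes, 35 in all; HMOX1, GSS, GSR, PRDX1, PRDX6, SOD1, ABCC1, ABCC3 and FTH1 had none in the table. A match stood in 8 of the 35 (22.9%), against 13.3% of 35116 promoters of this length and 14.7% of 13610 promoters of genes tested. The windows below are shown because they carry the match in GSTP1 and TXNRD1, whose mRNA fell over both MAPKAPK2 shRNAs in the main test described below, and in GCLM, KEAP1 and ME1, which that test did not call over both. Each is written 5′ to 3′ along the gene's strand with 1 match in capitals, and bases are counted from the start as 0.
GSTP1, plus strand, chr11:67583720-67583780: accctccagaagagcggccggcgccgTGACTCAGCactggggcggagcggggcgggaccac
TXNRD1, plus strand, upstream start, chr12:104215654-104215714: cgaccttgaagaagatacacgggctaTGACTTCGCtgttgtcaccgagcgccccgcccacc
TXNRD1, plus strand, downstream start, chr12:104286904-104286964: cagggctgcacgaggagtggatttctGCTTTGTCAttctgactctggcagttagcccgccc
GCLM, minus strand, chr1:93909431-93909490: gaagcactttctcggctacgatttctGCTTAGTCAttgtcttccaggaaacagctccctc
KEAP1, minus strand, chr19:10502772-10502828: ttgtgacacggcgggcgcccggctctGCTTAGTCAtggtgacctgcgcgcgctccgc
ME1, minus strand, chr6:83431154-83431214: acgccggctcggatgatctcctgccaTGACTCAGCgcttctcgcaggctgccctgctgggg

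GSTP1 and the upstream TXNRD1 start carry the match on the gene's own strand, from -66 to -58 and from -99 to -91. The downstream TXNRD1 start carries it on the opposite strand, from -102 to -94. GCLM and KEAP1 carry the same 9 bases, also on the opposite strand, from -34 to -26 and from -31 to -23. Further matches stood from -54 to -46 in KEAP1, in lower case in the window above, from -8 to 0 at the upstream TXNRD1 start and from 11 to 19 in ME1. ABCC4, which was called in no contrast, carried a match from -149 to -141, and MGST1 carried one from 30 to 38. Among genes that passed the test over both MAPKAPK2 shRNAs, a match stood in 3 of 4 promoters of those that fell and in 0 of 7 of those that rose. It stood in 5 of 24 promoters of the others. The 3 promoters belong to 2 genes, GSTP1 and TXNRD1 with its 2 starts, and of the other genes that fell HMOX1 and PRDX1 had no promoter in the table. Of the genes that rose, ABCC1, FTH1 and GSR had no promoter either, so the 7 promoters belong to CAT, BLVRB, SOD2 and TXN. KEAP1 and GCLM, counted among the others, fell over both shRNAs by limma voom on recovered reads. MGST1, also counted among the others, rose with shRNA 2 by limma voom on recovered reads alone. NQO1, a textbook NRF2 target, had no match in this window. These are counts of letters in short windows, not of bound sites.

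The libraries held 14252316 to 19975449 reads in genes. MAPKAPK2 stood at 16.2 to 18.9 FPKM in the 4 control libraries, at 2.77 and 2.54 with shRNA 1, and at 0.982 and 0.800 with shRNA 2. Of 8 markers of colon epithelium, 6 reached 1 FPKM in every library, with summed levels of 1225 to 1795 FPKM; CEACAM5 had 0 reads throughout. Of 6 fibroblast markers only COL1A1 reached 1 FPKM, DCN and LUM were at 0, and no endothelial or immune marker reached 1 FPKM. In bulk RNA, fewer cells of a kind and less RNA per cell cannot be told apart. Mitochondrial genes took 6.83% and 7.82% of reads in the 20 mM controls, 11.1% and 9.62% with shRNA 1, and 7.06% and 9.10% with shRNA 2; the part of this share in the results was not tested.

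The 33 genes were abundant. Their median level over all libraries was 36.2 FPKM, against 4.48 for all genes tested. The ferritin chains, which store iron, stood at the top, with means of 1056 FPKM for FTL and 470 for FTH1. The peroxiredoxin PRDX1 (305), the glutathione transferase GSTP1 (224) and thioredoxin, TXN (196), followed. SOD2 had the lowest mean that passed the filter, at 3.87, and GPX2 the highest that did not, at 0.622, with 1 library just above 1 FPKM (1.003) and 1 just below (0.9995). NFE2L2 itself, at 19.1, and its inhibitor KEAP1, at 32.8, were in the middle of the order.

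**Figure D1:**
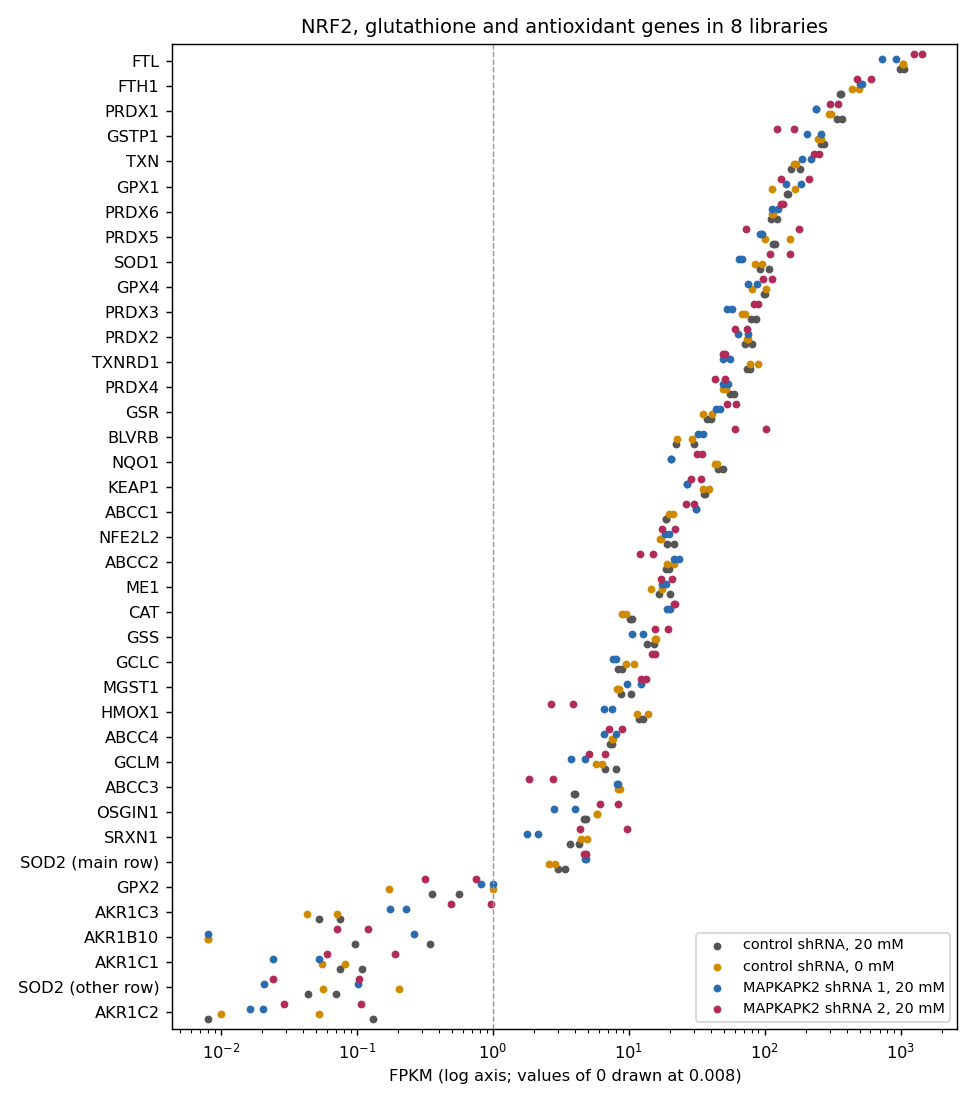
FPKM on a log axis of all 39 rows in 8 libraries, 1 point per library, coloured by group and ordered by mean; the dashed line marks 1 FPKM. Mean levels ran from 1056 FPKM for FTL to well below 1 for the AKR1C genes, of which AKR1C3 reached 0.967 in 1 shRNA 2 library.

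The first comparison asked what loss of MAPKAPK2 does to these genes at 20 mM glucose. Differences were tested with limma on log2(FPKM + 1) over all 16239 genes, and a gene was called at a Benjamini-Hochberg adjusted p under 0.05; over both shRNAs it also had to move the same way with each. Where no other tool is named, "called" refers to this test. Log2 fold changes are on this scale, which understates changes at low FPKM. Over both shRNAs 12 of the 33 genes were called (36.4%), against 17.3% of all genes tested. Of these 7 rose and 5 fell, against 9.56% and 7.77%. CAT, BLVRB, ABCC1, FTH1, SOD2, TXN and GSR rose, and HMOX1, NQO1, GSTP1, TXNRD1 and PRDX1 fell, so the programme did not move as a block. The median change was -0.03 for these genes and -0.004 for all genes tested. The median size of change was 0.259 against 0.246. Whether the larger share called is particular to these genes was not tested, and their levels are higher than those of most genes.

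Each shRNA was also read alone. With shRNA 1, 12 of the 33 were called, against 19.8% of all genes tested; 5 rose and 7 fell, against 9.35% and 10.5%. With shRNA 2, 14 were called, against 18.8%; 8 rose and 6 fell, against 11.1% and 7.73%. Called in the same direction with each were 7 genes: NQO1, HMOX1 and TXNRD1 fell, and CAT, ABCC1, SOD2 and FTH1 rose. One gene, ABCC3, was called in opposite directions, 4 were called with shRNA 1 only, 6 with shRNA 2 only and 15 with neither. Neither these patterns nor the lack of overlap between groups given below was counted over all genes tested. On reads recovered from the FPKM, limma voom called the same genes and a few more: 14 over both shRNAs, 13 with shRNA 1 and 17 with shRNA 2, against 22.7%, 25.5% and 24.2% of all genes tested. The additions were KEAP1 and GCLM over both shRNAs, SOD1 with shRNA 1, and MGST1, OSGIN1 and FTL with shRNA 2. With no filter on low FPKM, FTH1, PRDX1, GSTP1, TXN, GSR and BLVRB lost their calls over both shRNAs (limma adjusted p = 0.0847 to 0.14), FTH1, PRDX1, KEAP1, HMOX1 and GCLM theirs with shRNA 1 (0.0547 to 0.193), and FTH1, TXN, ABCC2, ABCC3 and SOD2 theirs with shRNA 2 (0.0521 to 0.147). Under quantile normalization GSR lost its calls over both shRNAs and with shRNA 2 (limma adjusted p = 0.0888 and 0.0917), and TXNRD1 its call with shRNA 1 (0.0682). The labels do not tie the 2 libraries of a group to separate cultures, and the p-values therefore reflect no more than the scatter of these libraries, part of which may be technical.

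**Figure D2:**
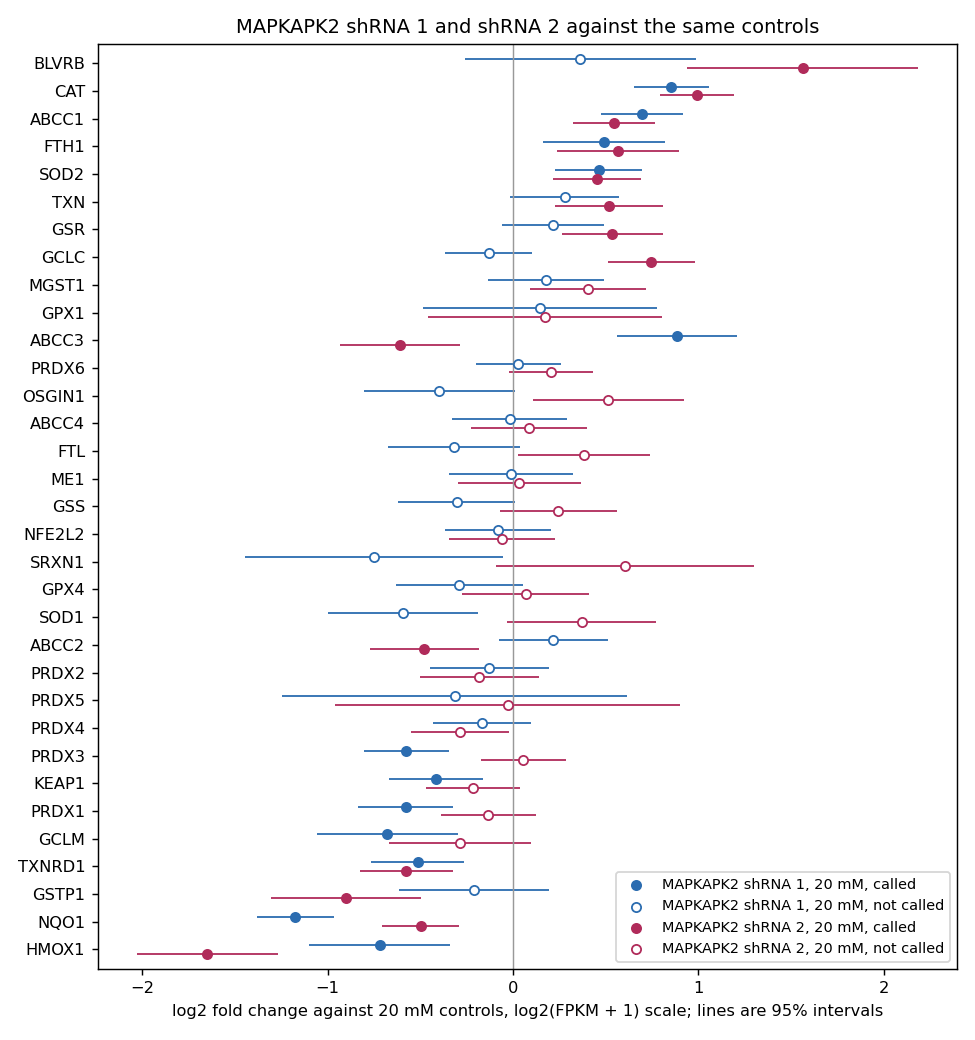
Log2 fold change of the 33 genes with shRNA 1 (blue) and shRNA 2 (red) against the same 20 mM controls, on the log2(FPKM + 1) scale, ordered by the mean of both; lines are 95% intervals and filled points passed the test. NQO1, HMOX1 and TXNRD1 lie left of 0 and CAT, ABCC1, SOD2 and FTH1 right of it with each shRNA, while ABCC3 lies at 0.89 with shRNA 1 and -0.61 with shRNA 2.

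Of the regulators, NFE2L2 was not called and KEAP1 fell with shRNA 1. NFE2L2 (ENSG00000116044, chromosome 2 from 177227595 to 177392697) stood at 19.3 and 21.5 FPKM in the 20 mM controls, 19.9 and 18.5 with shRNA 1, and 17.5 and 21.7 with shRNA 2. The groups overlapped, and the change over both shRNAs was -0.07 on the log2 scale (95% interval -0.32 to 0.18). KEAP1 (ENSG00000079999, chromosome 19 from 10486120 to 10503741) stood at 36.5 and 36.0 FPKM in the controls, 27.0 and 26.8 with shRNA 1, and 33.8 and 28.5 with shRNA 2. All 4 knockdown libraries were below both controls. The fall with shRNA 1 was called (log2 fold change -0.41, SE 0.11, limma adjusted p = 0.0378), and the -0.22 with shRNA 2 was not (limma adjusted p = 0.218). The KEAP1 call was lost without either 20 mM control (limma adjusted p = 0.168 and 0.149), either 0 mM control (0.0538 and 0.054) or either shRNA 1 library (0.15 and 0.154).

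Of the enzymes that break down quinones and haem, NQO1 and HMOX1 fell with each shRNA and BLVRB rose with shRNA 2. NQO1 reduces quinones by 2 electrons and is a standard readout of NRF2 (ENSG00000181019, chromosome 16 from 69706996 to 69726951). It stood at 45.4 and 49.4 FPKM in the controls, 20.4 and 20.5 with shRNA 1, and 34.6 and 31.9 with shRNA 2. No library overlapped between groups, and shRNA 1, which left more MAPKAPK2 mRNA, gave the lower NQO1. NQO1 changed by -1.17 on the log2 scale (SE 0.09, limma adjusted p = 0.00081) with shRNA 1 and -0.50 (SE 0.09, limma adjusted p = 0.0103) with shRNA 2, and the difference between them, 0.68, was called (limma adjusted p = 0.00325). With shRNA 2 the call was lost without either 20 mM control (limma adjusted p = 0.0513 and 0.0842). Of its exon bases 17.7% overlap an antisense gene listed at 0 FPKM.

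HMOX1 opens the haem ring and releases iron, biliverdin and carbon monoxide (ENSG00000100292, chromosome 22 from 35380361 to 35394214). It stood at 11.8 and 12.6 FPKM in the controls, 7.53 and 6.58 with shRNA 1, and 3.86 and 2.66 with shRNA 2. The order of the shRNAs was the reverse of that for NQO1, again with no overlap between groups. Log2 fold changes were -0.72 (SE 0.16, limma adjusted p = 0.0236) and -1.65 (SE 0.16, limma adjusted p = 0.00121), and they differed by -0.93 (limma adjusted p = 0.00856). The smallest HMOX1 count was 103 reads, with an exact 95% Poisson interval of 84.1 to 125 that covers counting error only. The shRNA 1 call was lost without either 20 mM control (limma adjusted p = 0.0987 and 0.122) or either shRNA 1 library (0.0809 and 0.13), and the difference between shRNAs was lost without the first shRNA 1 library (0.0641).

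BLVRB reduces biliverdin and flavins (chromosome 19 from 40447765 to 40465840). It stood at 30.1 and 22.4 FPKM in the controls, 35.1 and 32.3 with shRNA 1, and 102 and 60.5 with shRNA 2. Both shRNA 2 libraries were above all others, but they differed from each other by 0.75 on the log2(FPKM + 1) scale. The rise with shRNA 2 was 1.56 (SE 0.26, limma adjusted p = 0.0087), and the 0.36 with shRNA 1 was not called (limma adjusted p = 0.383). Over both shRNAs the call (0.96, limma adjusted p = 0.0296) was lost without either 20 mM control (0.0894 and 0.196) or either shRNA 1 library (0.0837 and 0.0723). With shRNA 2 alone it was lost without the second 20 mM control (1.36, limma adjusted p = 0.0637). The shRNAs differed by 1.20 (limma adjusted p = 0.0195), lost without either shRNA 1 library (0.0843 and 0.104).

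**Figure D3:**
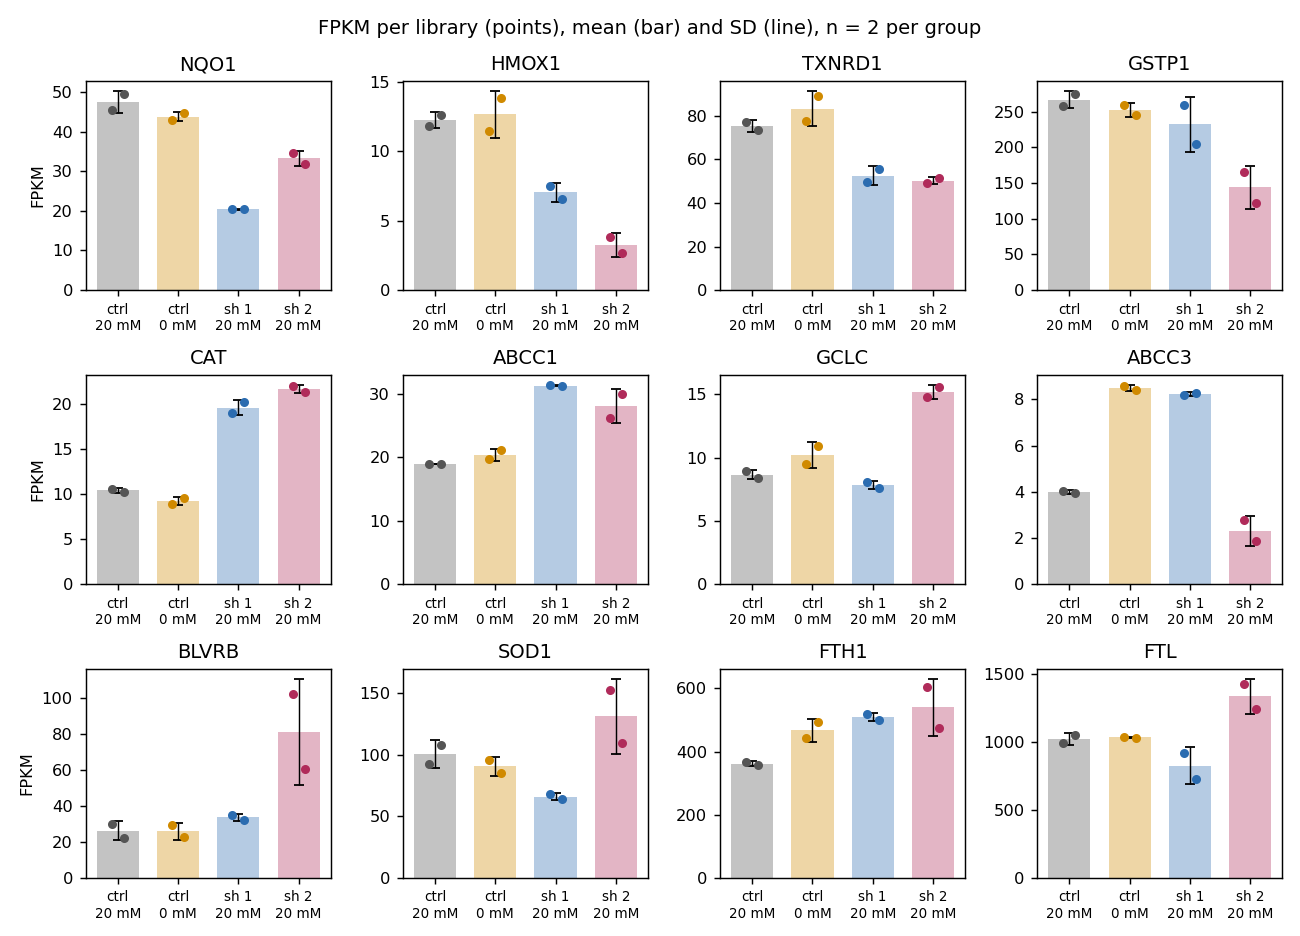
FPKM of 12 genes in each library (points), with the group mean (bar) and SD (line), n = 2 per group, on linear axes that start at 0. NQO1, HMOX1 and TXNRD1 were lower and CAT and ABCC1 higher with each shRNA, whereas GCLC, ABCC3, SOD1 and FTL differed between the shRNAs.

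The subunits of glutamate-cysteine ligase, the rate-limiting enzyme of glutathione synthesis, did not move together. The catalytic subunit GCLC (ENSG00000001084, chromosome 6 from 53497341 to 53616970) stood at 8.93 and 8.38 FPKM in the controls, 8.05 and 7.59 with shRNA 1, and 14.8 and 15.6 with shRNA 2. Only the shRNA 2 libraries were high, with a log2 fold change of 0.75 (SE 0.10, limma adjusted p = 0.00379), against -0.13 with shRNA 1 (limma adjusted p = 0.406). The modifier subunit GCLM (ENSG00000023909, chromosome 1 from 93885205 to 93909456), whose promoter window is printed above, stood at 8.04 and 6.68 FPKM in the controls, 3.73 and 4.73 with shRNA 1, and 5.06 and 6.70 with shRNA 2. The shRNA 1 libraries were the lowest and the shRNA 2 libraries overlapped the controls. GCLM fell by 0.68 with shRNA 1 (SE 0.16, limma adjusted p = 0.0285), a call lost without either 20 mM control (limma adjusted p = 0.161 and 0.0755) or either shRNA 1 library (0.157 and 0.0662). With shRNA 2 its change was -0.29 (limma adjusted p = 0.273).

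Glutathione synthetase, GSS, which adds glycine in the last step, stood at 13.7 and 15.4 FPKM in the controls, 12.7 and 10.6 with shRNA 1, and 19.3 and 15.7 with shRNA 2. It was called against the controls with neither shRNA. The 2 shRNAs differed by 0.55 (limma adjusted p = 0.028), which was lost without either 0 mM control (0.0509 and 0.0513), either shRNA 1 library (0.0588 and 0.154) or the first shRNA 2 library (0.0871). Glutathione reductase, GSR, which returns oxidised glutathione to its reduced form, stood at 37.9 and 40.2 FPKM in the controls, 44.1 and 46.9 with shRNA 1, and 52.7 and 61.7 with shRNA 2. All knockdown libraries were above both controls. The rise was called with shRNA 2 (0.54, SE 0.12, limma adjusted p = 0.0206) and not with shRNA 1 (0.21, limma adjusted p = 0.242). With shRNA 2 it was lost without either 20 mM control (limma adjusted p = 0.13 and 0.0876) or the second shRNA 2 library (0.0592). Over both shRNAs it was 0.38 (limma adjusted p = 0.0431), and any left-out library except the first shRNA 2 library ended that call (0.0551 to 0.249).

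Among enzymes that use glutathione, GSTP1 was called by limma on log2(FPKM + 1). It conjugates electrophiles to glutathione and is the most abundant transferase in the list (ENSG00000084207, chromosome 11 from 67583595 to 67586656). It stood at 258 and 275 FPKM in the controls, 259 and 205 with shRNA 1, and 165 and 123 with shRNA 2. One shRNA 1 library lay within the control range, and both shRNA 2 libraries lay below all others. GSTP1 changed by -0.90 on the log2 scale with shRNA 2 (SE 0.17, limma adjusted p = 0.0134), lost without either 20 mM control (0.0723 and 0.0867), and -0.21 with shRNA 1 (limma adjusted p = 0.441). Over both shRNAs it was -0.56 (limma adjusted p = 0.0433). That call was lost without any library except the first shRNA 2 library (0.0502 to 0.222), and under quantile normalization the 2 shRNAs no longer moved GSTP1 the same way. GPX1 and GPX4, which reduce hydrogen peroxide and lipid peroxides respectively, were called in no contrast, and MGST1, a membrane-bound transferase, was called with shRNA 2 by limma voom on recovered reads alone (0.44, adjusted p = 0.0313). GPX1 ranged from 131 to 211 FPKM within the shRNA 2 group alone.

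The 2 partners of the thioredoxin system moved apart. Thioredoxin reductase, TXNRD1, is a selenoprotein that keeps thioredoxin reduced (ENSG00000198431, chromosome 12 from 104215779 to 104350305). It stood at 77.3 and 73.5 FPKM in the controls, 49.5 and 55.6 with shRNA 1, and 49.2 and 51.4 with shRNA 2. All 4 knockdown libraries were below both controls and the shRNAs overlapped. TXNRD1 changed by -0.51 on the log2 scale (SE 0.11, limma adjusted p = 0.0176) with shRNA 1 and -0.58 (SE 0.11, limma adjusted p = 0.0116) with shRNA 2. Each call was lost without either 20 mM control (limma adjusted p = 0.0647 to 0.115), and that with shRNA 1 also without either shRNA 1 library (0.113 and 0.0566); over both shRNAs (-0.55, limma adjusted p = 0.00931) the call was lost without either 20 mM control (0.095 and 0.0701).

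TXN, the thioredoxin it reduces, stood at 156 and 182 FPKM in the controls, 221 and 189 with shRNA 1, and 253 and 231 with shRNA 2. All knockdown libraries were above both controls. The rise was 0.52 with shRNA 2 (SE 0.12, limma adjusted p = 0.0293) and 0.28 with shRNA 1 (limma adjusted p = 0.165). With shRNA 2 the call was lost without either 20 mM control (limma adjusted p = 0.184 and 0.0689), either 0 mM control (0.0572 and 0.0581) or the first shRNA 2 library (0.079). Over both shRNAs (0.40, limma adjusted p = 0.0439) it was lost without any library except the second shRNA 2 library (0.0603 to 0.302). SRXN1, sulfiredoxin, which repairs over-oxidised peroxiredoxins, stood at 4.30 and 3.66 FPKM in the controls, 1.79 and 2.13 with shRNA 1, and 9.69 and 4.35 with shRNA 2. It was lowest with shRNA 1, and the shRNA 2 libraries disagreed by 1.00 on the log2(FPKM + 1) scale. Neither shRNA was called against the controls, while their difference was (1.35, limma adjusted p = 0.019) and was lost without either shRNA 1 library (0.104 and 0.0772). Of SRXN1's exon bases 85.0% also belong to a same-strand gene, so its reads are uncertain to that extent.

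Most peroxiredoxins reduce peroxides with electrons from thioredoxin. Of the 6 peroxiredoxins tested, 2 fell with shRNA 1, PRDX1 and PRDX3, and 0 were called with shRNA 2. Cytosolic PRDX1 stood at 340 and 372 FPKM in the controls, 238 and 238 with shRNA 1, and 347 and 303 with shRNA 2. Mitochondrial PRDX3 stood at 79.5 and 86.8 in the controls, 57.9 and 53.1 with shRNA 1, and 83.5 and 89.5 with shRNA 2. Both were low with shRNA 1 and within or near the control range with shRNA 2. With shRNA 1 the log2 fold change was -0.58 for PRDX1 (SE 0.11, limma adjusted p = 0.013) and -0.58 for PRDX3 (SE 0.10, limma adjusted p = 0.00922). The PRDX1 call was lost without either 20 mM control (limma adjusted p = 0.0633 and 0.0982) or either shRNA 1 library (0.0791 and 0.0786). The PRDX3 call was lost without the second 20 mM control (0.0755) or the second shRNA 1 library (0.0702).

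Over both shRNAs PRDX1 was called as well (-0.36, limma adjusted p = 0.0416), although 1 shRNA 2 library stood above 1 control. That call was lost without either 20 mM control, either 0 mM control or either shRNA 1 library (limma adjusted p = 0.0767 to 0.263). An antisense gene, MMACHC, overlaps 24.9% of PRDX1's exon bases. PRDX2, PRDX4, PRDX5 and PRDX6, of cytosol, endoplasmic reticulum, mitochondria and peroxisomes, and cytosol respectively, were called in no contrast. PRDX5 stood at 179 and 72.9 FPKM in the shRNA 2 libraries, the widest gap between libraries of a group among the 33 tested genes, at 1.28 on the log2(FPKM + 1) scale.

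Catalase, CAT, which splits hydrogen peroxide in peroxisomes, gave one of the steadiest changes (ENSG00000121691, chromosome 11 from 34438925 to 34472062). It stood at 10.6 and 10.2 FPKM in the controls, 19.0 and 20.2 with shRNA 1, and 22.0 and 21.4 with shRNA 2. All 4 knockdown libraries were far above both controls. The rise was 0.86 with shRNA 1 (SE 0.08, limma adjusted p = 0.00178) and 0.99 with shRNA 2 (SE 0.08, limma adjusted p = 0.000734), and both calls held under every one of 14 alternative settings.

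SOD2, the mitochondrial superoxide dismutase, stood at 3.03 and 3.38 FPKM in the controls, 4.80 and 4.78 with shRNA 1, and 4.82 and 4.68 with shRNA 2. All knockdown libraries were above the controls. The rise was 0.46 with shRNA 1 (SE 0.10, limma adjusted p = 0.0209) and 0.45 with shRNA 2 (SE 0.10, limma adjusted p = 0.0221). Leaving out either 20 mM control or either shRNA 1 library ended the call with shRNA 1 (limma adjusted p = 0.0741 to 0.13) and over both shRNAs (0.0504 to 0.129), and with shRNA 2 any 20 mM knockdown or control library did so (0.0511 to 0.141). The second SOD2 row, at most 0.203 FPKM, was not tested. SOD1, the cytosolic enzyme, stood at 92.2 and 108 FPKM in the controls, 67.7 and 64.2 with shRNA 1, and 153 and 110 with shRNA 2. It lay below the controls with shRNA 1 and above them with shRNA 2, without a call for either on log2(FPKM + 1) (limma adjusted p = 0.0519 and 0.185). The difference between the shRNAs, 0.96, was called (limma adjusted p = 0.00941) and was lost without either shRNA 1 library (0.0536 and 0.0632).

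The export pumps, which remove glutathione conjugates and other organic anions, each behaved differently. ABCC1, or MRP1 (ENSG00000103222, chromosome 16 from 15949577 to 16143074), stood at 18.9 and 18.9 FPKM in the controls, 31.4 and 31.2 with shRNA 1, and 26.2 and 30.0 with shRNA 2. Both knockdown groups were above the controls. The rise was 0.70 (SE 0.09, limma adjusted p = 0.00422) and 0.55 (SE 0.09, limma adjusted p = 0.00925), the latter lost without either 20 mM control (0.069 and 0.0667). ABCC2, or MRP2, stood at 19.7 and 18.6 FPKM in the controls, 21.5 and 23.4 with shRNA 1, and 12.0 and 15.1 with shRNA 2. It was high with shRNA 1, uncalled, and fell with shRNA 2 by 0.48 (SE 0.12, limma adjusted p = 0.0392), a call lost without any library except the second shRNA 2 library (0.0585 to 0.188). Between the shRNAs ABCC2 differed by -0.69 (limma adjusted p = 0.00974), lost without the second shRNA 1 library (0.0699). ABCC4 was called in no contrast.

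ABCC3, or MRP3, was the single gene called in opposite directions (ENSG00000108846, chromosome 17 from 50634777 to 50692252). It stood at 4.05 and 3.94 FPKM in the 20 mM controls, 8.18 and 8.28 with shRNA 1, and 2.76 and 1.85 with shRNA 2. No library overlapped between these groups. The change was 0.89 (SE 0.14, limma adjusted p = 0.00693) with shRNA 1 and -0.61 (SE 0.14, limma adjusted p = 0.0235) with shRNA 2. The difference, -1.50 (limma adjusted p = 0.000932), held under all 14 alternatives. The calls of the single shRNAs were lost without either 20 mM control or either shRNA 1 library (limma adjusted p = 0.05 to 0.0529 for shRNA 1 and 0.0519 to 0.125 for shRNA 2).

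Ferritin heavy chain, FTH1 (ENSG00000167996, chromosome 11 from 61959718 to 61967660), oxidises iron for storage, and the light chain, FTL (ENSG00000087086, chromosome 19 from 48965301 to 48966878), helps form the iron core. FTH1 stood at 367 and 357 FPKM in the controls, 518 and 501 with shRNA 1, and 605 and 476 with shRNA 2. All knockdown libraries were above both controls. The rise was 0.49 with shRNA 1 (SE 0.14, limma adjusted p = 0.049) and 0.57 with shRNA 2 (SE 0.14, limma adjusted p = 0.0321), and 0.53 over both (limma adjusted p = 0.0262). All 3 calls were lost without either 20 mM control or either shRNA 1 library (limma adjusted p = 0.0623 to 0.201); both single-shRNA calls also needed each 0 mM control (0.0551 to 0.0785), and that with shRNA 2 the first shRNA 2 library (0.065). The shRNA 1 call was also lost with a pseudocount of 0.1 (limma adjusted p = 0.055). FTH1 shares 40.4% of its 50-base windows with other genes, chiefly its pseudogenes, and 62.4% of its exon bases overlap the antisense gene BEST1, listed at a mean of 0.0775 FPKM.

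FTL stood at 992 and 1055 FPKM in the controls, 923 and 731 with shRNA 1, and 1431 and 1246 with shRNA 2. It was below the controls with shRNA 1 and above them with shRNA 2, with log2 fold changes of -0.32 and 0.38 that were not called on log2(FPKM + 1) (limma adjusted p = 0.191 and 0.129). Between the shRNAs it differed by 0.70 (limma adjusted p = 0.0186). That call was lost without the second shRNA 1 library (0.108) or the first shRNA 2 library (0.061), and under quantile normalization (0.22, limma adjusted p = 0.218).

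The cytosolic malic enzyme ME1, which makes NADPH, stood at 16.8 and 20.2 FPKM in the controls and between 17.3 and 20.6 in the knockdown libraries, and was called in no contrast. OSGIN1, a growth inhibitor induced by oxidative stress, stood at 4.65 and 4.81 FPKM in the controls, 2.79 and 3.99 with shRNA 1, and 8.38 and 6.14 with shRNA 2. It was lower with shRNA 1 and higher with shRNA 2. Neither change was called on log2(FPKM + 1), and limma voom on recovered reads called the rise with shRNA 2 (0.61, adjusted p = 0.0298). The shRNAs differed by 0.91 (limma adjusted p = 0.0117), which was lost without the first shRNA 1 library (0.71, limma adjusted p = 0.0699). Of the aldo-keto reductases, NRF2 targets in many carcinomas, AKR1B10, AKR1C1 and AKR1C2 were near the detection limit, at or below 0.343 FPKM in every library. AKR1C3 reached 0.967 FPKM in 1 shRNA 2 library and is described at the end. AKR1C1 and AKR1C2 share much of their sequence, so reads cannot be assigned firmly between them.

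The knockdown libraries were then compared directly, since the shRNAs left different amounts of MAPKAPK2 mRNA. Between shRNA 2 and shRNA 1, 14 of the 33 genes differed (42.4%), against 22.2% of all genes tested, and 10 were higher and 4 lower with shRNA 2, against 13.0% and 9.13%. Higher were SRXN1, BLVRB, SOD1, OSGIN1, GCLC, FTL, NQO1, PRDX3, GSS and PRDX1. Lower were ABCC3, HMOX1, ABCC2 and GSTP1. The median difference was 0.20 for the 33 genes and 0.03 for all genes tested. A total of 12 genes had changes of opposite sign with the 2 shRNAs, and 9 of these were among the 14 that differed. Opposite signs were not counted over all genes tested. Only ABCC3 was called against the controls in each direction, and some of the 12 lay near 0, such as ME1 (-0.01 and 0.03) and ABCC4 (-0.02 and 0.09). GCLC, NQO1, PRDX3 and ABCC3 kept this call under all 14 alternatives. The PRDX1 call was lost without any library except the second shRNA 2 library (limma adjusted p = 0.0554 to 0.125) and under quantile normalization (0.09 on the log2 scale). With no filter on low FPKM, FTL, PRDX1, GSTP1, BLVRB, GSS and SRXN1 lost it (limma adjusted p = 0.0596 to 0.211). That of GSTP1 was lost without any library except the first shRNA 2 library (limma adjusted p = 0.0538 to 0.158). The shRNA 2 libraries also differed most from each other, by a median of 0.247 on the log2(FPKM + 1) scale for these genes, against 0.0921 in the 20 mM controls and 0.124 with shRNA 1. All genes tested gave the same order, with 0.234, 0.126 and 0.133. The gap exceeded 0.5 for PRDX5, SRXN1, BLVRB and GPX1.

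The second comparison asked what 24 h without glucose did in control shRNA cells. None of the 33 genes was called by limma on log2(FPKM + 1), and none of the 16239 genes tested was (0.0%); 3 of the 33 and 1421 of all had an unadjusted p under 0.05. The median change was -0.02 for these genes and -0.01 for all genes tested. The changes ran from -0.25 for PRDX3 to 0.93 for ABCC3. ABCC3 stood at 4.05 and 3.94 FPKM at 20 mM and at 8.59 and 8.40 at 0 mM. The groups did not overlap, and the limma adjusted p was 0.202. On the recovered reads limma voom called it (1.09, adjusted p = 0.0131), the only one of the 33, against 28 of all genes tested (0.172%).

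**Figure D4:**
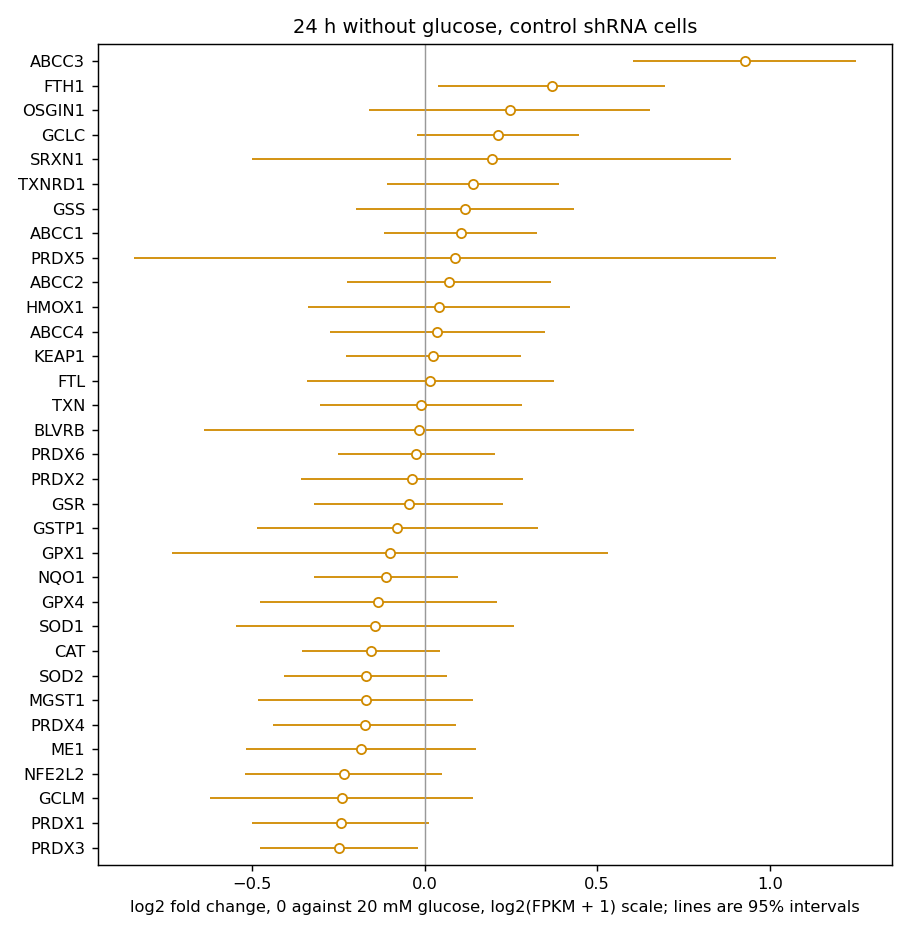
Log2 fold change of the 33 genes at 0 against 20 mM glucose in control shRNA cells, on the log2(FPKM + 1) scale; lines are 95% intervals and open points did not pass the test. ABCC3 stands alone at 0.93, and the others lie between -0.25 and 0.37.

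The classical NRF2 targets gave small, uncalled differences. NQO1 stood at 43.0 and 44.6 FPKM at 0 mM (log2 fold change -0.11, 95% interval -0.32 to 0.10). HMOX1 stood at 11.5 and 13.9 (0.04, -0.34 to 0.42), and TXNRD1 at 77.7 and 89.1 (0.14, -0.11 to 0.39). Of these, HMOX1 overlapped its 20 mM range, NQO1 lay below it and TXNRD1 above it. GCLC stood at 9.47 and 10.9 FPKM (0.21, -0.02 to 0.45) and GCLM at 5.78 and 6.33 (-0.24, -0.62 to 0.14). FTH1, at 442 and 494 FPKM, lay above both 20 mM libraries (0.37, 0.04 to 0.70), and FTL, at 1037 and 1033, did not (0.02, -0.34 to 0.37).

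NFE2L2 was lower in both 0 mM libraries, at 17.0 and 17.3 FPKM, than in any other library, with an interval of -0.52 to 0.05 that includes 0. KEAP1 stood at 39.0 and 34.9 FPKM (0.02, -0.23 to 0.28). A missing call with 2 libraries a group does not show that a gene kept its level.

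Related genes outside the list were counted in 5 sets chosen by textbook role, with earlier results of these data known. Among 18 tested genes that control NRF2, 3 rose and 3 fell over both shRNAs, against 9.56% and 7.77% of all genes tested. CUL3, the scaffold of the KEAP1 ligase, rose from 5.53 ± 0.291 FPKM (SD, n = 2) to 8.51 ± 0.303 with shRNA 1 and 10.9 ± 2.10 with shRNA 2 (log2 fold change 0.70, limma adjusted p = 0.00916). BTRC, the β-TrCP adaptor of a second NRF2 ligase, rose from 5.11 ± 0.330 to 8.21 ± 0.402 and 11.6 ± 0.334 (0.82, limma adjusted p = 0.00139). MAFF, a small MAF partner, fell from 9.72 ± 1.25 to 2.58 ± 0.486 and 5.94 ± 1.45 (-1.11, limma adjusted p = 0.00503). Its fall was called with shRNA 1 and not with shRNA 2 (limma adjusted p = 0.0516). The median of this set was 0.004, as against -0.004 for all genes tested.

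Among 21 tested other NRF2 targets, 1 rose and 5 fell, against 9.56% and 7.77% of all genes tested, with a median of -0.19 against -0.004. IDH1, which makes cytosolic NADPH, fell from 18.6 ± 0.257 FPKM to 12.8 ± 0.956 and 8.10 ± 0.972 (SD, n = 2; -0.81, limma adjusted p = 0.00297), and PIR, the iron-binding nuclear protein pirin, from 5.46 ± 0.722 to 2.39 ± 0.920 and 3.60 ± 0.342 (-0.72, limma adjusted p = 0.0267). The fall of PIR was called with shRNA 1 and not with shRNA 2 (limma adjusted p = 0.127). TSKU, a secreted proteoglycan, rose from 6.71 ± 0.136 to 12.4 ± 0.904 and 11.3 ± 0.907 (0.74, limma adjusted p = 0.00267).

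Among 24 tested other glutathione genes, 4 rose and 4 fell, against 9.56% and 7.77% of all genes tested (median -0.06 against -0.004). On the log2(FPKM + 1) scale, GLO1 showed the largest change over both shRNAs of any called gene in these 5 sets. The scale understates changes at low FPKM, such as that of PXDN below. GLO1, the glyoxalase that uses glutathione to clear methylglyoxal, stood at 24.7 and 26.2 FPKM in the controls. Its levels were 91.1 and 79.6 with shRNA 1, and 87.4 and 103 with shRNA 2. The knockdown libraries were far above the controls with each shRNA (over both 1.78, limma adjusted p = 0.000248). CHAC1, which degrades glutathione, fell with shRNA 2 from 8.46 ± 1.55 to 2.14 ± 0.166 FPKM (SD, n = 2; -1.58, limma adjusted p = 0.0012), and GGT7, of the gamma-glutamyltransferase family, fell over both shRNAs (-0.99, limma adjusted p = 0.0043).

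Of 23 tested other thioredoxin, superoxide and methionine-repair genes, 3 rose and 1 fell, against 9.56% and 7.77% of all genes tested, a share called that is near the 17.3% over all genes (median 0.02 against -0.004). The peroxidase PXDN, which crosslinks collagen IV, rose from 1.51 ± 0.0809 FPKM to 7.14 ± 0.314 with shRNA 1 and 6.63 ± 0.0860 with shRNA 2 (SD, n = 2; 1.65, limma adjusted p = 0.000215). TXNDC12 (0.71, limma adjusted p = 0.036) and the methionine sulfoxide reductase MSRB2 (0.68, limma adjusted p = 0.0446) rose too. TXNDC12 was not called with shRNA 2 (limma adjusted p = 0.0962), nor MSRB2 with shRNA 1 (0.137). Of 16 tested other haem and iron genes, 4 rose and 0 fell, against 9.56% and 7.77% of all genes tested (median 0.10 against -0.004). BLVRA, the second biliverdin reductase, rose from 7.45 ± 1.16 to 10.6 ± 1.37 and 15.2 ± 1.73 FPKM (SD, n = 2; 0.70, limma adjusted p = 0.0113). With shRNA 1 the BLVRA rise was not called (limma adjusted p = 0.0679). The mitochondrial iron importer SLC25A37 (0.68, limma adjusted p = 0.00383) and the iron-sulfur protein CISD1 (0.61, limma adjusted p = 0.0276) also rose. Glucose withdrawal gave 0 calls in all 5 sets, on log2(FPKM + 1) and on the recovered reads alike.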

How the data were processed

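Libraries were made from total RNA with random hexamer priming, per the labels' protocols. The authors deposited FPKM of 58735 genes in 8 libraries. The tools listed, per the submitters' processing notes and without roles, are DESeq2 1.20.0, featureCounts 1.5.0-p3 and HISAT2 2.0.5; genome build and strand setting are not given in the sources used here. All 58735 identifiers, positions and lengths matched GENCODE 29 on GRCh38. In every library 100% of FPKM values above 0 were whole multiples of 1 read per gene length, which gave back the reads. The tolerance was 0.001 of a step at low counts and widened with the count. The step also gave the library size behind the FPKM, which was not the count of reads in genes. With shRNA 2 this size was lower (1.89396e+07 against 19794574 and 1.60981e+07 against 16948589), and in the other libraries it was higher. How the authors set it is not given, and its part in the differences between groups was not tested.

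Tests used limma 3.58.1 (R 4.3.3, eBayes with trend) on log2(FPKM + 1), with a mean for each of 4 groups, which leaves 4 residual degrees of freedom. The filter was 1 FPKM in 2 libraries, and p-values were adjusted over 16239 genes. The script was tested on simulated data. Alternatives were a pseudocount of 0.1, limma voom on recovered reads, no filter, protein-coding genes only, quantile normalization, each library left out, and the replicate number as a block. The genes and lists were chosen with earlier results of these data known. Values in every library were printed for 9 genes of the NRF2 core and for genes called in any contrast with a log2 change of at least 0.5; other genes named outside these were chosen after their values were seen. From each related set, up to 3 called genes with the largest change over both shRNAs were named. Depth was 14252316 to 19975449 reads. The Poisson interval of the smallest HMOX1 read count covers counting error only. Intervals of log2 fold changes were taken from the limma fit and reflect the scatter between libraries.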

Additional observations from a re-analysis of the deposited data

Results flagged for a closer look

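The effect of shRNA 1 and that of shRNA 2, each against the same 20 mM controls, differed for 14 genes by the limma test of the difference (shRNA 2 minus shRNA 1, log2, called at an adjusted p under 0.05; 22.2% of all genes tested were called). Opposite signs with the 2 shRNAs, lower with shRNA 1 and higher with shRNA 2, were found for SRXN1 (a difference of 1.35), SOD1 (0.96), OSGIN1 (0.91), GCLC (0.88), FTL (0.70), PRDX3 (0.63) and GSS (0.55). The reverse held for ABCC3 (-1.50) and ABCC2 (-0.69). Of these genes only ABCC3 was called against the controls in each direction. BLVRB (1.20) was higher with each and more so with shRNA 2, and NQO1 (0.68) and PRDX1 (0.45) were lower with each and less so with shRNA 2. HMOX1 (-0.93) and GSTP1 (-0.69) were lower with each and more so with shRNA 2. The groups of SRXN1 and BLVRB rest on shRNA 2 libraries that differed from each other by 1.00 and 0.75 on the log2(FPKM + 1) scale.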

How the results depend on the processing

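Of 14 genes or fewer called per contrast, the calls that held under all 14 alternatives were 4 of 12 over both shRNAs (NQO1, HMOX1, CAT and ABCC1), 3 of 12 with shRNA 1 (NQO1, CAT and ABCC1), 3 of 14 with shRNA 2 (HMOX1, CAT and GCLC) and 4 of 14 between the shRNAs. Counts of called genes with 1 library left out ranged from 4 to 13 over both shRNAs, 3 to 14 with shRNA 1, 3 to 15 with shRNA 2 and 6 to 14 between the shRNAs. They were 4 and 4 over both shRNAs, 4 and 3 with shRNA 1, and 4 and 3 with shRNA 2 without the first or the second 20 mM control. Without the first or the second shRNA 1 library they were 5 and 5 over both, 4 and 3 with shRNA 1, and 6 and 6 between the shRNAs. Such fits have fewer degrees of freedom for every gene, and the share of all genes called in them was not counted. No called change reversed in any of them. Without a filter 6 genes were called over both shRNAs, 7 with shRNA 1 and 8 between the shRNAs, with more genes tested. The share of all genes called without a filter was not counted either. Of 52 called gene results, 22 lost the call without a filter, 6 under quantile normalization, 3 with the replicate block and 1 with a pseudocount of 0.1. Voom and protein-coding genes only kept all 52. Voom used the library sizes behind the FPKM, so it does not check that scaling. For glucose, limma voom on recovered reads called 1. Under quantile normalization 3 uncalled changes reversed: FTL for glucose (-0.15), and between the shRNAs NFE2L2 (-0.10) and FTH1 (-0.34, limma adjusted p = 0.039); the cause was not tested. Near-zero changes that crossed 0 with 1 library left out ranged, for glucose, from -0.028 to 0.061 for FTL, -0.055 to 0.10 for KEAP1 and -0.085 to 0.17 for HMOX1; with shRNA 2, from -0.21 to 0.088 for NFE2L2; and between the shRNAs, from -0.10 to 0.25 for FTH1, -0.14 to 0.020 for TXNRD1 and -0.13 to 0.17 for NFE2L2.

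Deviations of same-numbered libraries had correlations of -0.03 to 0.18 over 6 pairs of groups, the highest between the 0 mM controls and shRNA 2. Such correlations over all genes cannot show whether same-numbered libraries share a batch or pairing, and the labels state none. FTH1 with shRNA 1 (limma adjusted p = 0.0591), and PRDX1 and TXN over both shRNAs (0.053 and 0.0535), lost their calls with the replicate block. With it 0 genes were called for glucose, 11 over both shRNAs, 11 with shRNA 1, 14 with shRNA 2 and 15 between the shRNAs. The share of all genes called with the block was not counted. The 2 libraries per group limit every test, and low counts limit SRXN1, HMOX1 and the untested AKR1C genes.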

Other observations

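AKR1C3, an aldo-keto reductase of steroid and prostaglandin metabolism, did not pass the filter and was not tested. It was listed at 0.0528 and 0.0744 FPKM in the 20 mM controls, 0.0427 and 0.0715 in the 0 mM controls, 0.176 and 0.231 with shRNA 1, and 0.967 and 0.493 with shRNA 2. All 4 knockdown libraries lay above all 4 control libraries. The reads were few: 4 and 6 in the 20 mM controls, 4 and 5 in the 0 mM controls, 15 and 16 with shRNA 1, and 83 and 36 with shRNA 2. How many of all genes show such a separation was not counted.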
